A study of Mus musculus with 18 samples.

Results

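Interferon-stimulated genes were followed in the kidney of mice given streptozotocin (STZ), AOS, both, or STZ with a transfer of gut microbes. The set holds 34 genes, taken as the entries of the deposited gene table that carry their symbols. All 34 were among the 19545 entries, and all 34 were among the 12682 genes tested, which reached 1 FPKM in at least 3 libraries. The RNA came from kidney of ICR mice aged 10 weeks and gave 18 libraries, in 6 groups of 3. The groups were control, AOS at 10 mg/kg, STZ, STZ with AOS at 10 mg/kg (STZ+AOS), STZ with a transfer labelled AOS 10 mg/kg FMT (STZ+AOS-FMT) and STZ with a transfer labelled control FMT (STZ+control-FMT). STZ is a toxin of pancreatic beta cells that is used to make rodents diabetic, and FMT commonly stands for a transplant of faecal microbes. AOS is not spelled out in the labels, nor is it stated whether donor or recipient received the AOS of a transfer label. The title of the series asks whether an AOS transfer counters harm done to the kidney by STZ. Levels are FPKM, that is reads scaled by gene length and by library size. Values are given for replicates 1, 2 and 3 in that order. The labels do not say whether the replicates are separate mice, so the p-values rest on a spread that may be technical.

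Interferons are secreted proteins that warn cells of viruses and other intracellular microbes. Type I and type III interferons act through receptor kinases on a complex that holds STAT2 and IRF9 and binds the interferon-stimulated response element (ISRE), and interferon gamma acts on the gamma-activated site (GAS). The genes that these factors switch on block viral replication, sense foreign nucleic acid, mark vacuoles that hold microbes and present antigen. In kidney they can be expressed by tubule, endothelial and resident immune cells.

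The promoters of the members were searched for both sites, because the members differed in which libraries they were high in. The search used RefSeq windows of GRCm38.p6 that ran from 250 bases before to 50 bases after the start of transcription, on both strands. A window was found for 26 of 34 members, and none was found by symbol for Oas2, Usp18, Dhx58, Zbp1, Gbp6, Iigp1, Parp14 and Rtp4. The ISRE letters GAAANNGAAA stood in a window of 15 of the 26 members (57.7%), against 3.99% of 27025 genes. The GAS letters TTCNNNGAA stood in a window of 8 of the 26 (30.8%), against 9.55% of genes. Both patterns stood in 1 window for 5 members, Bst2, Eif2ak2, Gbp7, Igtp and Oas1a, and they overlapped each other only in Bst2. A match describes the letters and does not show that a factor binds there. The stretches shown are those of 3 of the 4 members that passed the test in a comparison (the window of Tap1 held no match), of Rsad2, the next by the test over all groups, and of Isg15 and Bst2, which were chosen after their values were seen. They are written 5′ to 3′ along the strand of the gene, they end at or before the start of transcription, and capitals mark the matches.
Ifit2, chr19:34550444-34550491, plus strand, with 1 GAS match: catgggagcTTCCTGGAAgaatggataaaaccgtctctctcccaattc
Irf1, chr11:53769894-53769962, plus strand, with 1 GAS match: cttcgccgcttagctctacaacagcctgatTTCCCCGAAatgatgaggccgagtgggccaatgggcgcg
Gbp7, chr3:142530200-142530322, plus strand, with 2 GAS matches and 1 ISRE match: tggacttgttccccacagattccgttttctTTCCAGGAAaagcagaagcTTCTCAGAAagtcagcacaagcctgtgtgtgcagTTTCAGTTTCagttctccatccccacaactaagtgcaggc
Rsad2, chr12:26456533-26456602, minus strand, with 1 ISRE match: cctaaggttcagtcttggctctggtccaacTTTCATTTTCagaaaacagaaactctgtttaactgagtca
Isg15, chr4:156200845-156200926, minus strand, with 3 ISRE matches: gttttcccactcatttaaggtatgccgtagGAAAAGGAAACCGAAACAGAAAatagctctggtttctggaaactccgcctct
Bst2, chr8:71537557-71537638, minus strand, with 2 ISRE matches and 1 GAS match: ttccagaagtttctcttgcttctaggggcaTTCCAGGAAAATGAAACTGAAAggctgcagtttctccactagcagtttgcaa
The 3 ISRE matches of Isg15 overlapped one another and lay between 78 and 57 bases before the start. The GAS match of Irf1 lay between 90 and 82 bases before the start, and no ISRE letters stood in the window of Irf1 or of Ifit2.

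Facts of the libraries come before the results, since several of them touch every comparison. The number of genes at 1 FPKM or more ran from 11407 to 12607 per library, and the depth is unknown. Proximal tubule markers summed to between 2982 and 7978 FPKM, so the labelled tissue was present in each library. Adrenal cortex markers, 8 genes led by steroid enzymes, summed to 2535, 118 and 1788 FPKM in STZ+AOS, to 1.75, 1.64 and 922 in control, to 1.69, 41.8 and 56.9 in STZ, and to at most 2.52 in the other 9 libraries. Kap, the androgen-regulated protein of the proximal tubule, was at 150876, 145522 and 15798 FPKM in control and at 144830, 63552 and 14615 in STZ, so that the library labelled control 3 lay with samples given STZ and the library labelled STZ 1 with samples that were not. Results that rest on control 3 and STZ 1 are given with and without them, an alternative chosen after the data were seen. Spermatid markers summed to between 18.2 and 74.3 FPKM in the control and STZ libraries and to at most 0.18 in the other 12. The comparisons of AOS with control, and of STZ+AOS and both transfer groups with STZ, run across this divide. All 4 spermatid markers passed in each of them, and there the divide cannot be told apart from the treatment.

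The 34 genes varied more between libraries of 1 group than between groups. The mean of log2(FPKM + 1) over the members was 2.13, 2.14 and 3.37 in control, 2.30, 2.05 and 3.31 in AOS, and 2.01, 3.16 and 2.96 in STZ. It was 3.66, 3.31 and 2.75 in STZ+AOS, 3.13, 2.50 and 2.72 in STZ+AOS-FMT, and 2.65, 2.58 and 2.93 in STZ+control-FMT. Control 3 and AOS 3 thus were the next highest of all 18 libraries after STZ+AOS 1, while control 1 and 2, AOS 1 and 2 and STZ 1 were the lowest 5. As group means ± SD (n = 3) the values were 2.54 ± 0.72 in control, 2.55 ± 0.67 in AOS, 2.71 ± 0.61 in STZ, 3.24 ± 0.46 in STZ+AOS, 2.78 ± 0.32 in STZ+AOS-FMT and 2.72 ± 0.19 in STZ+control-FMT, and the ranges of all groups overlapped that of STZ+AOS. For each gene, the share of its sum of squares on the log2 scale that lay between the 6 group means was computed as a description. Its median was 0.23 over the members, with a range of 0.05 (Cmpk2) to 0.44 (Gbp7), and 0.46 over all 12682 genes. The heat map of the members by library shows the same blocks of high and low libraries across nearly all roles.

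**Figure D1:**
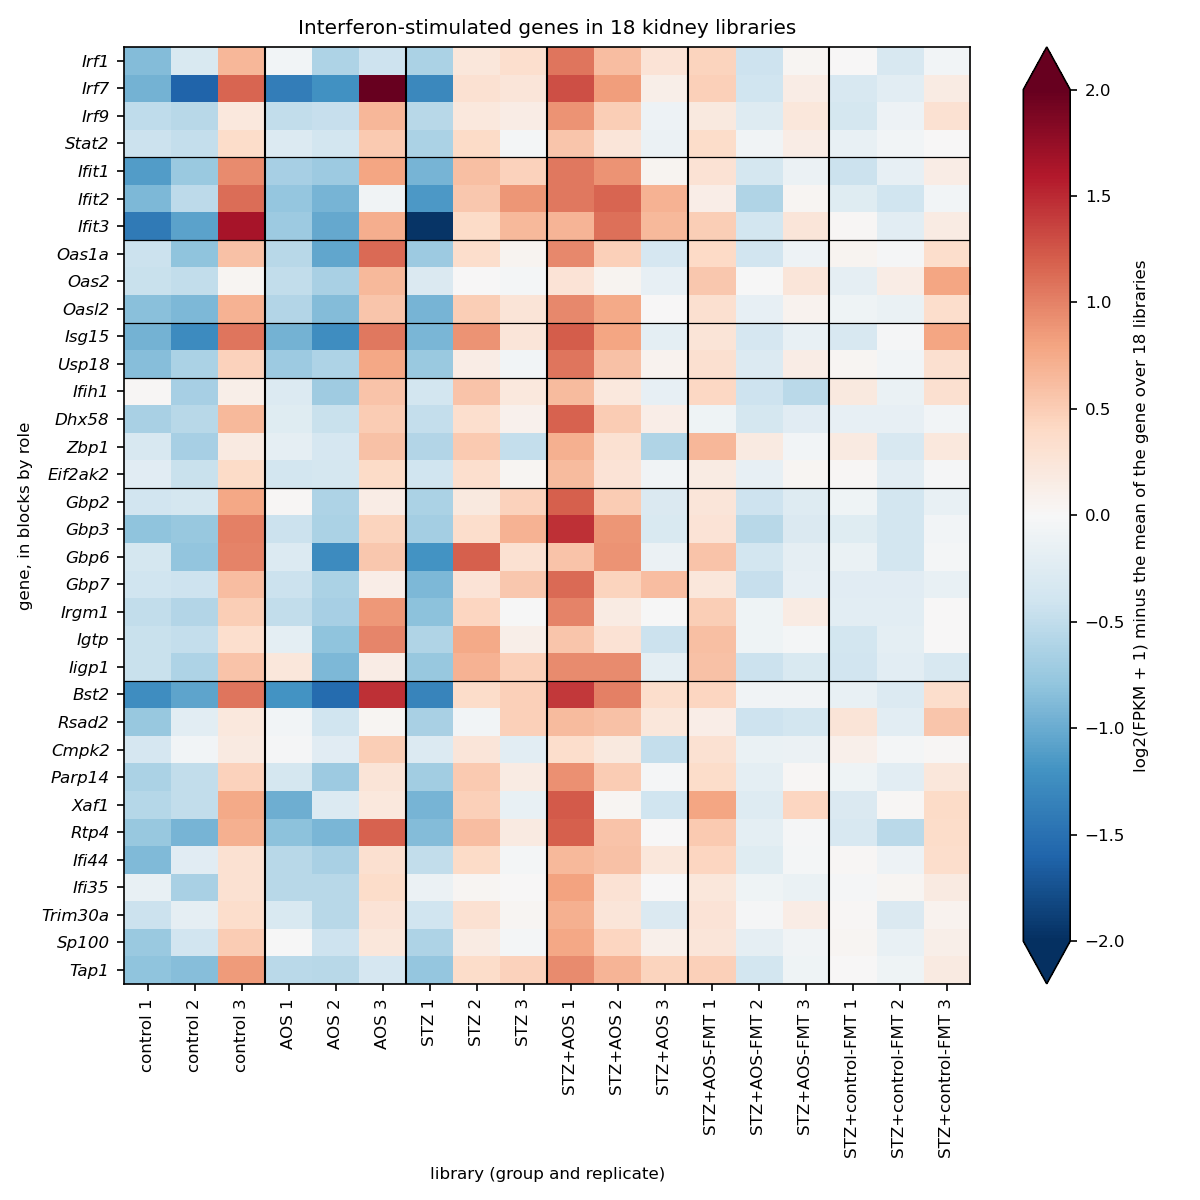
Each row is 1 of the 34 genes, in blocks by role, and each column is 1 of the 18 libraries. Colour gives log2(FPKM + 1) minus the mean of that gene over the 18 libraries, from blue (lower) to red (higher), cut at 2 on either side. Control 3, AOS 3 and STZ+AOS 1 are red in most rows, and STZ 1 is blue in nearly all.

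Markers of other cells moved with part of this pattern. Macrophage markers, 10 genes of which 10 were tested, summed to 147, 122 and 234 FPKM in control, 128, 84.2 and 126 in AOS, 108, 148 and 205 in STZ and 420, 255 and 161 in STZ+AOS. They summed to between 110 and 160 in STZ+AOS-FMT and between 125 and 175 in STZ+control-FMT. In 5 of the 6 groups the library with the lowest macrophage sum also had the lowest mean of the members, and in control it was control 2, at 2.14 beside 2.13 in control 1. The library with the highest mean of the members had the highest macrophage sum in control, STZ+AOS and STZ+AOS-FMT, and not in AOS, STZ or STZ+control-FMT. T and NK cell markers summed to between 4.60 and 10.7 FPKM over all libraries and B cell markers to between 0.87 and 11.3, and of the 4 plasmacytoid dendritic cell markers Siglech did not pass 0.72 FPKM and Ccr9 did not pass 0.15. The other 2 genes of that list were tested: Klk1, which kidney tubules also express, ran from 1193 to 2403 FPKM, and Tcf4 from 3.05 to 7.19. Tcf4 was higher in STZ+AOS than in STZ (0.57 ± 0.15, adjusted p = 0.0486, limma), AOS (0.65 ± 0.15, adjusted p = 0.00768) and STZ+AOS-FMT (0.63 ± 0.15, adjusted p = 0.0223). In these comparisons 4.53%, 46.5% and 15.1% of all genes passed. Klk1 went the other way in each, lower in STZ+AOS, and did not pass. It was at 1269, 1306 and 1193 FPKM in STZ+AOS, against 2245, 1534 and 1729 in STZ. In whole tissue, more cells of a type and more RNA per cell cannot be told apart, and the part that these cells have in the levels was not tested.

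**Figure D2:**
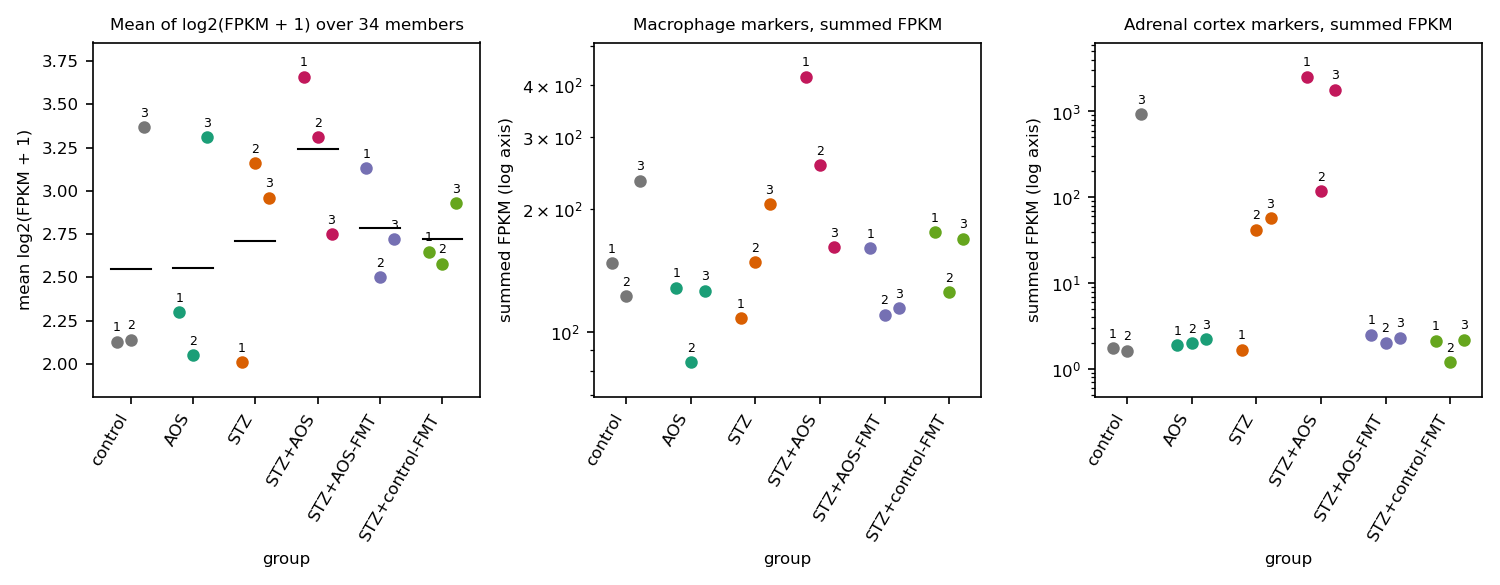
Points are the 18 libraries by group, numbered by replicate. The left panel gives the mean of log2(FPKM + 1) over the 34 members with a line at the group mean, and the middle and right panels give summed FPKM of macrophage and adrenal cortex markers on log axes. AOS 3 is high in the left panel at 3.31 and is not set apart from AOS 1 and 2 in the other panels.

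Of the transcription factors, Irf1 (chromosome 11, 53770014 to 53778374 in mm10), which is induced by interferon gamma and activates antigen presentation genes, reached 15.9, 11.3 and 8.70 FPKM in STZ+AOS, against 6.74, 4.25 and 5.01 in AOS. It was at 3.40, 5.49 and 11.7 in control, 4.16, 8.39 and 9.19 in STZ, 9.92, 5.05 and 7.25 in STZ+AOS-FMT and 7.11, 5.44 and 6.70 in STZ+control-FMT. All 3 STZ+AOS libraries lay above all 3 AOS libraries, and AOS 3 was not set apart from AOS 1 and 2. Irf1 rose from AOS to STZ+AOS by 1.01 ± 0.35 on the log2 scale (± standard error, adjusted p = 0.0312, limma with Benjamini-Hochberg adjustment over all genes). Irf7, the factor that amplifies type I interferon production, was named after its values were seen. It was at 5.08, 5.90 and 96.6 FPKM in AOS, so that AOS 3 held the highest level of all 18 libraries, and at 37.9, 27.5 and 16.2 in STZ+AOS. Elsewhere Irf7 was at 7.26, 4.27 and 34.7 in control, 5.51, 18.6 and 17.9 in STZ, and between 11.1 and 21.1 in the 6 transfer libraries. Irf9 and Stat2, partners in the complex that binds the ISRE, varied less, from 6.32 to 19.0 and from 3.57 to 9.40 FPKM.

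Of the IFIT proteins, IFIT1 binds viral RNA that lacks the marks of host RNA. Ifit2 (chromosome 19, 34550694 to 34576419) was at 9.05, 9.87 and 6.83 FPKM in STZ+AOS, against 1.83, 1.54 and 3.59 in AOS. It was at 1.60, 2.36 and 9.54 in control, 1.19, 6.06 and 7.94 in STZ, 4.31, 2.19 and 3.98 in STZ+AOS-FMT and 3.09, 2.68 and 3.67 in STZ+control-FMT. STZ+AOS lay wholly above AOS and both transfer groups, and it overlapped control through control 3 and STZ through STZ 3. The rise of Ifit2 from AOS to STZ+AOS, 1.57 ± 0.51 (adjusted p = 0.0236, limma), was the largest among the members in that comparison. Ifit3 ranged 17.4-fold over the libraries, from 2.20 FPKM in STZ 1 to 38.2 in control 3, and Ifit1 ranged from 0.49 in control 1 to 5.71 in STZ+AOS 1. With all libraries neither passed the test in any comparison, and reads of Ifit3 may be shared with its near copy Ifit3b.

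The OAS proteins make the second messenger that activates RNase L. Oas2 was at 1.08, 0.88 and 3.58 FPKM in AOS, 1.16, 1.09 and 2.01 in control and 1.39, 1.94 and 1.86 in STZ. It measured 2.55, 2.04 and 1.63 in STZ+AOS, 3.27, 1.93 and 2.46 in STZ+AOS-FMT and 1.58, 2.26 and 4.06 in STZ+control-FMT, where its highest level lay, and all groups overlapped. Oas1a was highest in AOS 3, at 10.6 FPKM, and lowest in AOS 2, at 1.60. Oasl2 ranged from 3.33 in STZ 1 to 15.1 in STZ+AOS 1, and the 3 genes are close relatives of others whose reads they may share.

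Isg15, a ubiquitin-like protein that is joined to other proteins during infection, ranged from 2.38 to 17.8 FPKM, and Usp18, the enzyme that removes it and dampens the type I receptor, from 1.00 to 6.53. Usp18 was at 1.00, 1.32 and 3.95 in control, 1.18, 1.33 and 5.15 in AOS and 1.14, 2.99 and 2.45 in STZ. It measured 6.53, 4.41 and 2.79 in STZ+AOS, 3.50, 1.98 and 2.96 in STZ+AOS-FMT and 2.69, 2.47 and 3.47 in STZ+control-FMT. The libraries that were high for Usp18 were those that were high for Isg15, which was at 15.98 in control 3, 15.84 in AOS 3 and 17.8 in STZ+AOS 1.

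Among the sensors, Dhx58, which tunes the sensing of double-stranded RNA by MDA5, was at 4.10, 2.21 and 1.46 FPKM in STZ+AOS, against 1.13, 0.77 and 0.92 in STZ+AOS-FMT, groups that did not overlap. It was at 0.44, 0.53 and 2.54 in control, 0.91, 0.66 and 2.21 in AOS, 0.61, 1.85 and 1.39 in STZ and 1.01, 1.00 and 1.18 in STZ+control-FMT. The difference from STZ+AOS-FMT, 0.83 ± 0.35, did not pass the test (adjusted p = 0.105, limma). Ifih1, which encodes MDA5, ranged from 1.44 to 5.18 FPKM, Zbp1, a sensor of Z-form nucleic acid that can trigger necroptosis, from 1.26 to 4.85, and Eif2ak2, the kinase that halts translation on double-stranded RNA, from 3.80 to 9.16.

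The immunity GTPases attack the vacuoles of intracellular microbes. Gbp7 (chromosome 3, 142530342 to 142550149) was at 9.91, 5.77 and 6.65 FPKM in STZ+AOS, against 2.70, 2.20 and 4.48 in AOS. It was at 2.77, 2.74 and 6.61 in control, 1.68, 4.99 and 6.25 in STZ, 4.85, 2.61 and 3.44 in STZ+AOS-FMT and 3.26, 3.25 and 3.48 in STZ+control-FMT. STZ+AOS lay wholly above AOS and both transfer groups. Gbp7 rose from AOS to STZ+AOS by 1.04 ± 0.35 (adjusted p = 0.0287, limma), and of all members it had the smallest p of the test over the 6 groups, which it did not pass (adjusted p = 0.240). Gbp2, Gbp3 and Gbp6 ranged 4.64-fold, 6.53-fold and 7.90-fold over the libraries, and Irgm1, Igtp and Iigp1 3.65-fold, 3.74-fold and 4.79-fold. Irgm1, a regulator of the GTPases and of autophagy, was among the more abundant members, at 18.5 to 67.5 FPKM. Gbp and Irg genes lie in clusters of near copies, so the share of each in the reads is uncertain.

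Of the other effectors, Tap1 (chromosome 17, 34187553 to 34197225), a subunit of the pump that carries peptides to MHC class I, was at 10.2, 8.34 and 6.95 FPKM in STZ+AOS, against 2.99, 2.96 and 3.60 in AOS. It was at 2.32, 2.22 and 9.47 in control, 2.41, 6.48 and 7.01 in STZ, 7.09, 3.52 and 4.49 in STZ+AOS-FMT and 4.85, 4.46 and 5.62 in STZ+control-FMT. The AOS libraries were close together and all lay under the STZ+AOS libraries, and Tap1 rose by 1.17 ± 0.40 (adjusted p = 0.0278, limma). Rsad2, which encodes viperin, an enzyme that makes a chain terminator of viral RNA synthesis, measured 7.24, 6.93 and 5.17 in STZ+AOS, 4.10, 3.01 and 4.46 in AOS and 4.81, 2.98 and 3.10 in STZ+AOS-FMT. It was at 2.14, 3.56 and 5.12 in control, 2.36, 4.07 and 6.36 in STZ and 5.32, 3.55 and 6.73 in STZ+control-FMT. STZ+AOS lay above AOS and STZ+AOS-FMT with no overlap, with differences of 0.62 ± 0.29 (adjusted p = 0.0917) and 0.70 ± 0.29 (adjusted p = 0.105) by limma, neither past the threshold.

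Ifi44 and Ifi35, interferon-induced proteins that have been tied to the control of innate signalling, had the next smallest p from AOS to STZ+AOS, with differences of 0.78 ± 0.32 (adjusted p = 0.0541) and 0.61 ± 0.26 (adjusted p = 0.0674) by limma. Ifi44 measured 10.7, 10.3 and 7.74 FPKM in STZ+AOS, 4.13, 3.78 and 8.34 in AOS, 3.05, 5.39 and 8.29 in control and 4.32, 8.73 and 6.30 in STZ. It was at 9.06, 5.31 and 6.27 in STZ+AOS-FMT and 6.65, 5.98 and 8.53 in STZ+control-FMT. Ifi35 measured 29.3, 20.2 and 16.4 in STZ+AOS, 10.8, 10.8 and 21.5 in AOS, 14.7, 10.1 and 20.4 in control and 15.1, 16.9 and 16.5 in STZ. It stayed within 14.9 and 19.4 in the 6 transfer libraries. In both genes AOS 3 was the one AOS library within the range of STZ+AOS.

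Parp14, an ADP-ribosyltransferase, measured 6.18, 4.42 and 2.74 FPKM in STZ+AOS, 1.98, 1.30 and 3.57 in AOS, 1.45, 1.72 and 4.23 in control and 1.35, 4.48 and 3.30 in STZ. It was at 3.95, 2.33 and 2.89 in STZ+AOS-FMT and 2.58, 2.30 and 3.49 in STZ+control-FMT. Sp100, a component of PML nuclear bodies, measured 14.7, 11.3 and 8.84 in STZ+AOS, 8.14, 5.93 and 9.72 in AOS, 4.52, 6.05 and 12.02 in control and 5.02, 9.29 and 7.91 in STZ, and between 7.08 and 9.89 in the transfer libraries. STZ+AOS overlapped each other group in both genes. Bst2, or tetherin, which holds budding viruses at the cell surface, spanned 8.64-fold, from 11.7 FPKM in AOS 2 to 101 in AOS 3. Cmpk2, a mitochondrial nucleotide kinase next to Rsad2 in the genome, was the steadiest member, at 2.33 to 5.51, while Xaf1, Rtp4 and Trim30a ranged 6.19-fold, 5.47-fold and 3.69-fold.

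**Figure D3:**
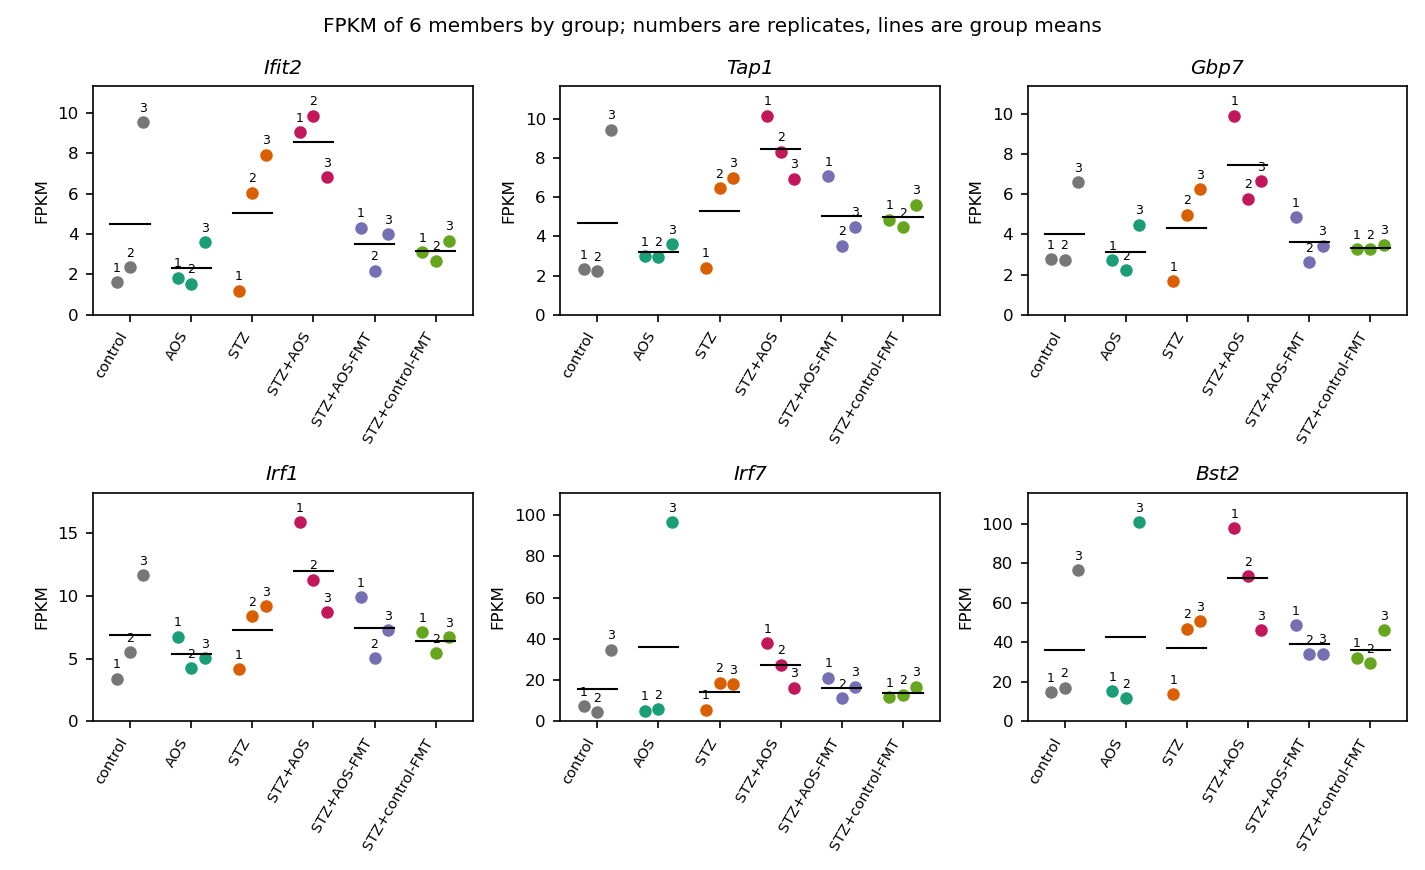
Points are FPKM of 6 members in the 18 libraries, numbered by replicate, with a line at each group mean. In Ifit2, Tap1, Gbp7 and Irf1 the 3 STZ+AOS libraries lie above the 3 AOS libraries, and in Irf7 and Bst2 the highest point is AOS 3, at 96.6 and 101 FPKM.

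AOS 3 stood above AOS 1 and 2 in many of the members. It was at least 2-fold above both in 18 of 34 members (52.9%), against 121 of all 12682 genes (0.954%). This count was made after the values of AOS 3 were seen, and 1 library against its own group has no replicate check. The ratio of AOS 3 to the mean of AOS 1 and 2 was 17.6 for Irf7, 7.55 for Bst2, 5.62 for Isg15, 5.15 for Rtp4, 5.03 for Oas1a, 4.61 for Ifit1 and 4.10 for Usp18. It was 0.912 for Irf1, 1.21 for Tap1, 1.25 for Rsad2, 1.36 for Iigp1, 1.38 for Sp100 and 1.44 for Gbp2, and its median over the members was 2.23. By role, all 3 OAS genes and both genes of the ISG15 system passed 2-fold above both, as did 2 of 3 IFIT genes, 3 of 4 sensors, 2 of 4 transcription factors, 3 of 7 GTPases and 3 of 11 other effectors. Of the 18 members, 13 had a promoter window and 9 of these held the ISRE letters, while of the other 16 members 13 had a window and 6 held them. The GAS letters stood in 3 of 13 windows (Bst2, Igtp and Oas1a) and in 5 of 13 (Eif2ak2, Gbp7, Ifi35, Ifit2 and Irf1). Of these genes Bst2, Igtp, Oas1a, Eif2ak2 and Gbp7 held the ISRE letters as well. The split into 18 and 16 members came from AOS 3 alone, after its values were seen. Whether either pattern differs between them was not tested.

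Some interferon-inducible genes outside the members also stood high in AOS 3. From a list of 49 such genes, 43 were tested, and 8 of them were at least 2-fold above both AOS 1 and 2: Ifit3b, Ifi27, Ifi27l2a, Irgm2, Gbp10, Oas1g, Oasl1 and Lgals3bp. The same held for 0.954% of all genes. Others of the list were lowest in AOS 3, among them Ifitm1, at 8.12, 5.21 and 3.92 FPKM in AOS, and Ly6e, at 133, 121 and 116. Ifi27, a small mitochondrial protein, was at 30.1, 35.65 and 335 FPKM in AOS, and its highest level in another group was 165. Lgals3bp, a secreted glycoprotein, was at 38.5, 33.5 and 329 in AOS, and its highest level in another group was 139. Among the interferons, Ifng was at 0.13, 0 and 0.13 FPKM in the AOS libraries, and Ifnb1, Ifnk and Ifnl3 were listed at 0 in all 3.

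Other measures of AOS 3 were mixed. Its adipocyte markers summed to 312 FPKM, against 24.1 in AOS 1 and 25.6 in AOS 2, and Hbb-bs, a globin of red cells, was at 213, against 1.04 and 2.93. Over the 15 libraries of the other groups the adipocyte sum ran from 30.8 to 806 and Hbb-bs from 0 to 3258. Its macrophage markers summed to 126 FPKM, tubule injury markers to 6.72 and adrenal cortex markers to 2.22, close to those of AOS 1, at 128, 8.67 and 1.89. Its T and NK cell markers summed to 8.28, between AOS 2 and AOS 1. Kap, at 153075, lay between AOS 1 and AOS 2. The part of adipose tissue and blood in the levels of AOS 3 was not tested.

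Control 3 and STZ 1 also stood apart in many members, together with many other genes. Control 3 was at least 2-fold above both other controls in 21 of 34 members (61.8%), against 10.7% of all genes. The ratio to their mean was 8.88 for Ifit3, 7.33 for Ifit1, 6.02 for Irf7, 5.70 for Isg15 and 5.24 for Dhx58, with a median of 2.63, and it was 4.17 for Tap1 and 2.63 for Irf1. These last 2 genes were therefore high in control 3 and not in AOS 3, as the plot of both ratios shows. STZ 1 was at least 2-fold below STZ 2 and 3 in 20 of 34 members (58.8%), against 6.4% of all genes, by up to 7.67-fold for Ifit3. Control 3 also had tubule injury markers at a sum of 62.5 FPKM, against 8.68 and 7.22 in the other controls, and the adrenal markers given above, whose part was not tested.

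**Figure D4:**
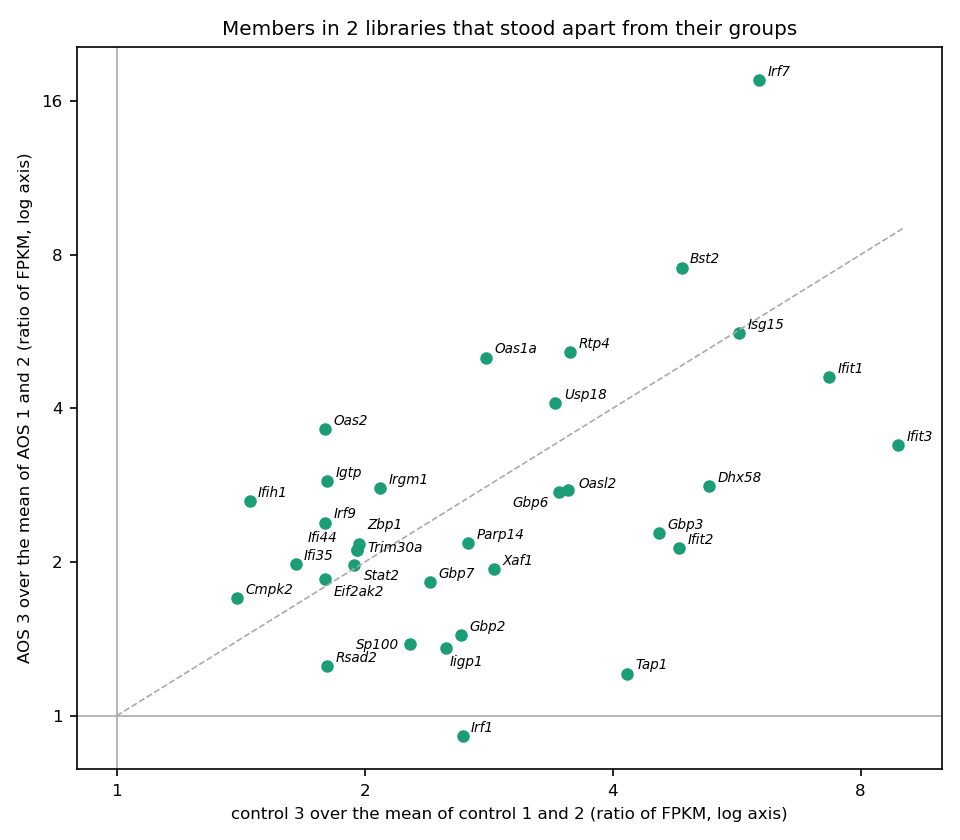
Each point is 1 of the 34 members. The horizontal axis is its FPKM in control 3 over the mean of control 1 and 2, the vertical axis its FPKM in AOS 3 over the mean of AOS 1 and 2, both as ratios on log axes, and the dashed line marks equal ratios. Irf7 and Bst2 lie above the line, and Tap1 and Irf1, at 4.17 and 2.63 in control 3, lie near 1 in AOS 3.

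The comparisons between groups were read against this spread. From control to STZ, 0 of 34 members passed the test, as did 0% of all genes, and the members' median difference was 0.17 on the log2 scale, against 0.00 over all genes. The median was -0.04 without control 1, 0.51 without control 3 and 0.46 without STZ 1, and 0.81 without both of the last 2. By limma 0 members and 161 genes had an unadjusted p under 0.05. Without control 3 and STZ 1, 3 members passed, Tap1 (1.24 ± 0.22, adjusted p = 0.00593), Ifit2 (1.43 ± 0.29, adjusted p = 0.0143) and Ifit3 (1.76 ± 0.45, adjusted p = 0.033), all higher in STZ, beside 8.71% of all genes. That is 2 libraries against 2, left out after their levels were seen, and 3 of 34 is near the share of all genes.

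AOS alone changed 0 of 34 members relative to control, beside 0.071% of all genes. The median difference was 0.02, with 18 members higher and 16 lower, and 26 to 27 higher after either rescaling of the libraries. As deposited, 26% of all genes were higher. By limma 0 members and 521 genes had an unadjusted p under 0.05. The largest differences were 0.47 ± 0.88 for Irf7 and -0.49 ± 0.51 for Ifit2. Without AOS 3 that of Irf7 was -0.84 ± 0.66, and without control 3 that of Ifit2 was 0.12. The median was 0.39 without control 3 and -0.33 without AOS 3.

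Relative to STZ, all 34 members had a higher mean in STZ+AOS, beside 73.6% of all genes. Their median difference was 0.52 against 0.19 over all genes, but 0 passed the test, beside 4.53% of all genes. By limma 1 member, Gbp7, and 4200 genes had an unadjusted p under 0.05 (Gbp7 0.76 ± 0.35, adjusted p = 0.15). In no member did each STZ+AOS library lie above each STZ library, whereas this held for 20.2% of all genes. After quantile normalization 29 members were higher and 5 lower with a median of 0.28, and after rescaling by the median of ratios 31 and 3 with a median of 0.31, while the medians over all genes were -0.02 and -0.01. The median difference was 0.17 without STZ 1, 0.25 without STZ+AOS 1 and 0.80 without STZ+AOS 3, and without STZ 3 Rsad2 passed (0.84 ± 0.29, adjusted p = 0.0485), beside 26.4% of all genes.

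The largest differences were those between STZ+AOS and AOS. Of 34 members, 4 passed (Ifit2, Tap1, Gbp7 and Irf1), 11.8%, all higher in STZ+AOS. Of all genes, 46.5% passed and 39.3% passed and were higher, shares above that of the members, whose median difference was 0.70 against 0.29 over all genes. That median was 0.43 without AOS 2. In 5 members, those 4 and Rsad2, each STZ+AOS library lay above each AOS library, against 49.7% of all genes. Without AOS 3, 9 members passed, beside 27.7% of all genes, and these were Bst2, Gbp7, Ifi35, Ifi44, Ifit2, Irf7, Irf9, Rtp4 and Usp18. The difference of Irf7 was then 2.04 ± 0.66 (adjusted p = 0.0385) and that of Bst2 2.30 ± 0.62 (adjusted p = 0.0278), where it had been 0.74 ± 0.88 and 1.35 ± 0.73 with all libraries. AOS 3 held the highest level of both genes among all libraries, so leaving it out had to raise both differences. These p-values by limma are therefore no support for a rise. Without AOS 2 or without STZ+AOS 1, 0 members passed, beside 28.7% and 27.9% of all genes. Leaving out control 3 and STZ 1, which belong to neither group and enter only through the shared estimate of spread, 12 members passed, beside 56.4% of all genes.

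Marker lists of many cell types also differed between STZ+AOS and AOS, where 46.5% of all genes passed. Of the macrophage markers 7 of 10 rose and Csf1r fell, and all tested markers rose of endothelium (8), podocytes (4), tubule injury (4), adrenal cortex (8) and chromaffin cells (5). Of 9 proximal tubule markers 5 fell and 0 rose, with a median of -0.84, and of 4 T and NK cell markers tested 0 passed, with a median of -0.27. Macrophage markers summed to between 161 and 420 FPKM in STZ+AOS and between 84.2 and 128 in AOS, and tubule injury markers to between 39.2 and 1220 and between 6.72 and 8.67. With the level of Cyp11b1, a steroid enzyme of the adrenal cortex, as a covariate, the differences of Ifit2, Tap1, Gbp7 and Irf1 were 0.07, -0.18, -0.09 and -0.03, and 0 members and 0 of all genes passed. Since Cyp11b1 was at 14.3 to 316 FPKM in STZ+AOS and at most 0.15 in AOS, its part and that of the treatment cannot be told apart. After rescaling by the median of ratios only Ifit2 passed, and after quantile normalization no member passed (smallest adjusted p 0.0579), beside 33.3% and 26.5% of all genes. The median over all genes then moved from 0.29 to -0.01 and -0.03, and that of the members from 0.70 to 0.42 and 0.32. Of the genes called, 84.6% were higher in STZ+AOS as deposited, 40.8% after the former and 41.9% after the latter. Members with a higher mean in STZ+AOS numbered 33, 29 and 26 in that order, beside 76.9% of all genes as deposited. The differences of the 4 genes kept their sign under both, at 0.61 to 1.28.

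Differences between the transfer groups and STZ were small in the median and rested on single libraries. In STZ+AOS-FMT 0 of 34 passed relative to STZ, beside 0.11% of all genes, with a median difference of 0.07, and in STZ+control-FMT 0 of 34, beside 0.103%, with a median of 0.02. Both comparisons share the STZ libraries, and the medians were -0.28 and -0.35 without STZ 1 and 0.31 and 0.25 without STZ 2. Between the transfers 0 of 34 passed, beside 0% of all genes, with a median of 0.09 that was -0.09 without STZ+AOS-FMT 1 and 0.22 without STZ+AOS-FMT 2, and the largest difference was -0.41 ± 0.29 for Rsad2, lower in STZ+AOS-FMT. By limma 0 members had an unadjusted p under 0.05 in these 3 comparisons, and 479, 281 and 209 genes did. A p that misses the threshold does not show that the levels were alike, and standard errors of the members reached 0.88 in each of them.

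STZ+AOS also lay above STZ+AOS-FMT, with a median difference of 0.47 against 0.17 over all genes. Of the members 30 of 34 were higher (26 and 27 after the rescalings, with medians of 0.28 and 0.21), beside 70.5% of all genes as deposited. The median was 0.27 without STZ+AOS 1 and 0.76 without STZ+AOS 3. The test passed for 0 members, beside 15.1% of all genes, while 4 members and 4588 genes had an unadjusted p under 0.05 by limma. In 5 members, Ifit2, Ifit3, Dhx58, Gbp7 and Rsad2, each STZ+AOS library lay above each STZ+AOS-FMT library, against 33.2% of all genes. The smallest p was that of Gbp7 (0.86 ± 0.35, adjusted p = 0.0991). Without control 3 and STZ 1, which again enter only through the spread, 5 members passed (Ifit2, Gbp7, Tap1, Dhx58 and Rsad2), beside 33.8% of all genes. The interaction, the AOS difference under STZ less the AOS difference without STZ, called 0 members and 0% of all genes, with 0 members but 4240 genes at an unadjusted p under 0.05. Its median was 0.51, and -0.22 without control 3 and STZ 1. Without STZ 3 it called 3044 genes and 0 members. The test over the 6 groups called 0 members, beside 0.647% of all genes, and 0 members but 3942 genes had an unadjusted p under 0.05 in it.

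**Figure D5:**
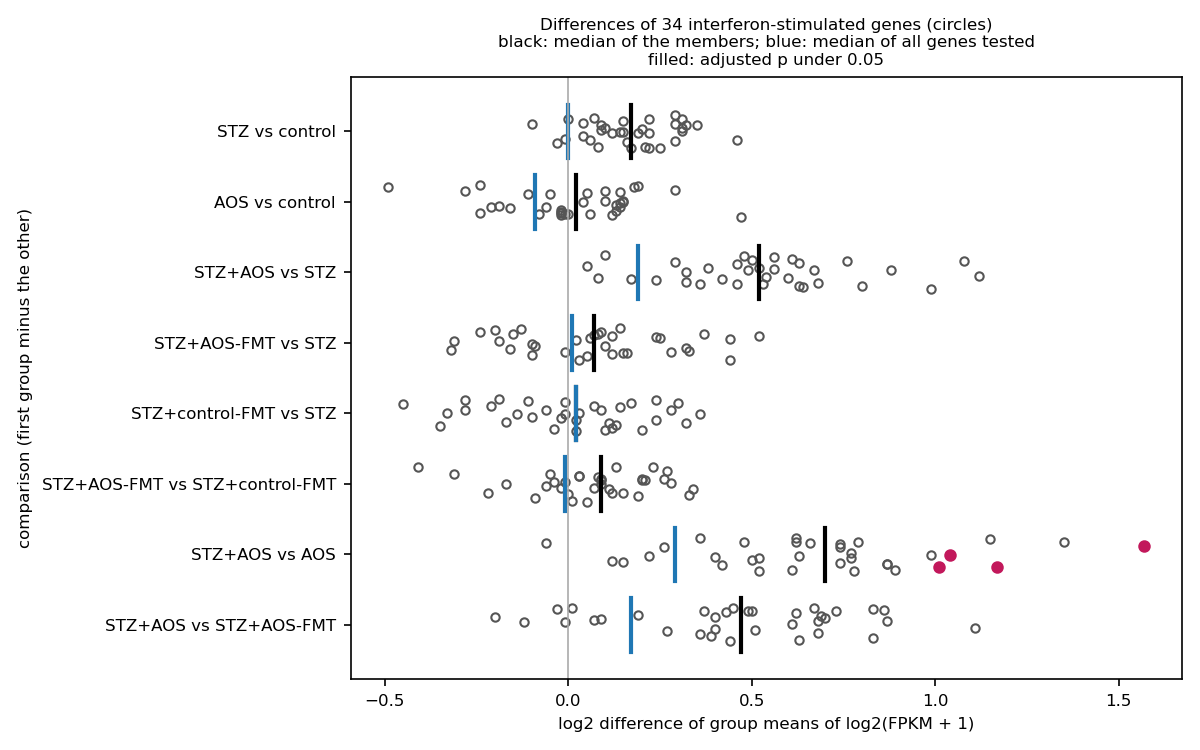
Each circle is 1 of the 34 members, placed by its log2 difference between the first and the other group of a comparison, and jittered upwards or downwards for view. Black lines mark the median of the members and blue lines that of all 12682 genes. The 4 filled circles, all from STZ+AOS against AOS at 1.01 to 1.57, are the members past the test.

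Upstream of the members, the ligands that could be read were near the floor and receptors were not. Of 9 interferon genes listed, 4 had an entry by symbol (Ifnb1, Ifng, Ifnk and Ifnl3). None of these reached the level for testing, and the highest value was 0.22 FPKM, for Ifng in STZ+AOS-FMT 3. Ifna1, Ifna2, Ifna4, Ifne and Ifnl2 had no entry by symbol, so their levels are unknown. From AOS to STZ+AOS, where 46.5% of all genes passed, 5 of 6 receptor genes were higher and passed, and Il10rb did not pass. Ifngr1 differed by 0.98 ± 0.17 (adjusted p = 0.0059, limma). The differences were 0.71 for Ifngr2, 0.56 for Ifnlr1, 0.43 for Ifnar2 and 0.39 for Ifnar1. The median over all genes was 0.29 as deposited, and -0.01 and -0.03 after the rescalings. Rescaled differences of the receptor genes are not given. Ifngr1, the ligand-binding chain of the interferon gamma receptor, reached 27.99, 22.1 and 28.9 FPKM in STZ+AOS, against 14.1, 10.96 and 13.3 in AOS, and AOS 3 was not set apart. It also rose relative to STZ+AOS-FMT (0.93 ± 0.17, adjusted p = 0.0117), where it was at 14.5, 11.8 and 13.7, and so did Ifngr2 and Ifnlr1.

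In the signalling genes and brakes of the pathway, calls from AOS to STZ+AOS ran from 40% to 75% of a list, beside 46.5% of all genes. Of 5 kinases and STATs, Stat3 (1.29 ± 0.30, adjusted p = 0.00783, limma) and Jak1 (0.37 ± 0.12, adjusted p = 0.0233) were higher and passed. Of 4 other IRFs, Irf8 and Irf2 rose, Irf5 fell (-0.81 ± 0.28, adjusted p = 0.031) and Irf3 did not pass. Myd88 (0.66), Mavs (0.56) and Ticam1 (0.20), adaptors of nucleic acid and microbial sensors, were higher and passed among 7 sensors and adaptors tested. The difference of Ticam1 was below the median of 0.29 over all genes, and rescaled differences of these genes are not given. Of 6 negative regulators, Socs3, Samhd1, Adar and Trex1 rose, and Socs3, which restrains JAK signalling, was at 13.6, 2.30 and 2.88 FPKM in STZ+AOS, against 0.79, 0.25 and 0.55 in AOS. Samhd1, an enzyme that depletes deoxynucleotides, was the only gene of the pathway lists that also rose relative to STZ (0.49 ± 0.13, adjusted p = 0.0488).

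Of the 43 interferon-inducible genes outside the members, 14 rose and 0 fell from AOS to STZ+AOS (32.6%, beside 39.3% of all genes called higher), with a median difference of 0.59 against 0.29 over all genes. Relative to STZ+AOS-FMT, 2 of these genes rose (4.65%), beside 1413 of all 12682 genes called higher and 15.1% called in either direction. The 5 with the smallest p were Ifitm2 (1.11 ± 0.24, adjusted p = 0.00719), Ly6e, Tap2, Ifitm1 and Helz2. Ifitm2, which blocks the entry of viruses at endosomes, was at 283, 205 and 215 FPKM in STZ+AOS, against 108, 113 and 99.5 in AOS. Tap2, the partner of Tap1 in the peptide pump, was at 21.6, 16.9 and 13.8 in STZ+AOS and 7.09, 7.43 and 10.7 in AOS, and the groups did not overlap. In the other comparisons with control or STZ, 0 of these 43 genes passed by limma.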

How the data were processed

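RNA sequencing of 18 kidney libraries, 3 in each of 6 groups, was read from 1 table of gene values. The deposited values are FPKM computed by the authors, as judged from the numbers themselves, since neither labels nor header state the unit: over the libraries the sum of value times exon length varied by 0.626% (coefficient of variation) and the plain sum by 5.47%. Bowtie 0.12.2 and mm10 are listed in the submitters' processing notes, and neither counter nor annotation is given in the sources used here. The absolute depth is unknown, so no counting interval is given. Groups came from the labels' treatment field.

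The 12682 genes that reached 1 FPKM in 3 or more libraries were put on the scale log2(FPKM + 1) and fitted together in limma 3.58.1 (R 4.3.3) with trend and robust options and 1 mean per group. The Benjamini-Hochberg adjustment ran over the whole tested table, 0.05 was the threshold, and the fit was tested on simulated data. A difference on this scale understates changes of low genes. With 3 against 3 the smallest p of an exact permutation test is 0.1. The members, the pathway and marker lists and the tests were chosen with earlier results of these data known. Values in every library were to be printed for members called in a comparison and for the 12 with the smallest p over the 6 groups. The rule allowed at most 5 called pathway genes a comparison, those with the smallest p. Further pathway genes and all other genes named singly were chosen after their values were seen. Coordinates are those of GENCODE release M21 on mm10, and promoter windows those of RefSeq on GRCm38.p6. Alternatives were other scalings, filters, pseudocounts and limma options, library weights, the replicate number as a block, a fit of only the groups compared, and each library left out. Chosen after the data were seen were leaving out control 3 and STZ 1 together and Cyp11b1 as a covariate.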

Additional observations from a re-analysis of the deposited data

How the results depend on the processing

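The count of members called from AOS to STZ+AOS was 4 (beside 46.5% of all genes), and was 0 after quantile normalization (26.5%), 1 after median-of-ratios rescaling (33.3%), 2 of 20 members tested with a mean of at least 5 FPKM (45.7%), 14 with library weights (59%), 12 without control 3 and STZ 1 (56.4%), and 0 with Cyp11b1 as a covariate (0%). It ranged from 0 to 9 when 1 library was left out: 0 without AOS 2 (28.7%) or STZ+AOS 1 (27.9%), 1 without AOS 1 (34%) or STZ+AOS 2 (40.3%), and 9 without AOS 3 (27.7%). From STZ+AOS-FMT to STZ+AOS it was 0, and was 2 with library weights (26.8%), 1 with only the groups compared (8.97%), 5 without control 3 and STZ 1 (33.8%), and 0 to 1 when 1 library was left out (1 without control 3, beside 25.2%, or STZ 1, beside 20.5%). Over the 6 groups it was 0, and was 3 with library weights (48.6%), 7 without control 3 and STZ 1 (42.5%), and 0 to 1 when 1 library was left out (1 without control 3, beside 28.5%). From STZ to STZ+AOS it was 0 and at most 1 when 1 library was left out (Rsad2 without STZ 3, beside 26.4%), and from control to STZ it was 0 and was 3 without control 3 and STZ 1 (8.71%). In the other 5 comparisons it was 0 under each alternative run. The cause of these shifts was not tested.

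With Cyp11b1 as a covariate the differences from AOS to STZ+AOS became -0.18 for Tap1, -0.09 for Gbp7 and -0.03 for Irf1, and Gbp7 became -0.10 relative to STZ, -0.28 relative to STZ+AOS-FMT and -0.22 in the interaction. Ifit2 from control to AOS became 0.12 without control 3, and also without control 3 and STZ 1, and ranged from -0.89 to 0.12 when 1 library was left out. Of the values of single members under alternatives, 316 kept their direction and side of the threshold, 24 lost the call, 2 gained it and 8 changed sign. These values cover Ifit2, Tap1, Gbp7 and Irf1 from AOS to STZ+AOS. In each other comparison and in the interaction they cover only the member with the smallest p, which was not called. Only the former had a call to lose, so all 24 losses were theirs, and the 316 include values that had none.

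The replicate numbers did not pair the samples: same-numbered libraries of different groups had a median correlation of -0.00377 between their deviations (45 pairs, -0.258 to 0.667), and 6 of 18 libraries correlated best with their own number. With the replicate block 4 members were called from AOS to STZ+AOS (Gbp7, Ifit2, Irf1 and Tap1) and 0 in the other comparisons. Depth is unknown, so what it limits could not be stated.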
